A study of Homo sapiens with 33 samples.

Results

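MYC and its partners in the MAX network were followed in bulk RNA sequencing of SCC1, SCC6 and SCC25, established cell lines from head and neck squamous cell carcinoma (HNSCC). The genes were taken by symbol, with earlier results of these data known, as the rows MYC, MYCL, MYCN, MAX, MXD1, MXD3, MXD4, MXI1, MNT and MLX, 10 of the 56470 gene symbols in the count table. Cells received PBS (untreated controls) or 100 nM cetuximab, an antibody that blocks the receptor EGFR, in medium that was renewed daily, and RNA was collected each day. There are 33 libraries, with PBS on days 0 to 5 and cetuximab on days 1 to 5 in each line, 1 library per line, treatment and day. In cetuximab-treated SCC6, day 2 is given for 2 libraries and day 1 for none, so these are called 2a and 2b, in the order of the table, and their day is not known. Each line is 1 established culture without its stroma, the sources differ on the medium, since the labels give supplements that vary with the line and the methods of the study name 1 medium for all. Since each day has 1 library, days served as replicates (n = 5 per treatment and line for days 1 to 5), and p-values measure the spread between these libraries.

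MYC is a transcription factor that forms dimers with MAX and activates genes of ribosome biogenesis, metabolism and cell division through E-boxes, short DNA elements. MYCL and MYCN are its paralogs. MXD1, MXD3, MXD4, MXI1 and MNT also pair with MAX, occupy the same kind of element and recruit the SIN3-histone deacetylase corepressor, so that they oppose MYC. MXD1 is known to rise in terminally differentiating epithelium, and MNT is expressed in most cell types. MLX is a MAX-like protein that pairs with some of the MXD proteins and MNT and with the glucose-sensing factors MondoA (MLXIP) and ChREBP (MLXIPL). EGFR signals through ERK, a kinase pathway that promotes MYC transcription and protein stability in epithelial cells.

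The canonical E-box was looked up in the 250 bases before the annotated start sites of the members, since members of the network can bind it in their own and each other's promoters. RefSeq windows (GRCh38.p14) were used for 9 of the 10 genes, with 3 windows for MXI1 and 2 for MAX. No window of MYC was searched, so whether it holds the E-box was not tested. The E-box searched was CACGTG, which reads the same on both strands. It occurred in 3 of the 12 windows, those of MXD4, MNT and MLX, against 6.34% of the 35116 windows of all genes. The windows of MXD4 (chr4:2262110-2262359, minus strand), MNT (chr17:2401061-2401310, minus strand) and MLX (chr17:42566850-42567099, plus strand) are shown because they hold it, and those of MYCL (chr1:39901918-39902167, minus strand) and MXD1 (chr2:69914859-69915108, plus strand) because these genes had large changes under cetuximab and hold none. All are written 5′ to 3′ on the strand of the gene, and capitals mark the E-box, which starts 238 bases before the start site in MXD4, 193 in MNT and 50 in MLX. These letters are no evidence of binding, which was not measured.
MXD4: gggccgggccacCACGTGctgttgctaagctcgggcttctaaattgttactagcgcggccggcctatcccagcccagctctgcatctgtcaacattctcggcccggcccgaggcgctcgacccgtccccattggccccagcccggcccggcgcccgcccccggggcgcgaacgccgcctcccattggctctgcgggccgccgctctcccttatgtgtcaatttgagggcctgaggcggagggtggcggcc
MNT: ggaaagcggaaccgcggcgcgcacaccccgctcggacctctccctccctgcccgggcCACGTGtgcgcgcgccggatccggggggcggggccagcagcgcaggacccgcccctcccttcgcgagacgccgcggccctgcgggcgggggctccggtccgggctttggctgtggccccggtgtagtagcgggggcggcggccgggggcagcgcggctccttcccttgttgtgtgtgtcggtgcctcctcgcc
MLX: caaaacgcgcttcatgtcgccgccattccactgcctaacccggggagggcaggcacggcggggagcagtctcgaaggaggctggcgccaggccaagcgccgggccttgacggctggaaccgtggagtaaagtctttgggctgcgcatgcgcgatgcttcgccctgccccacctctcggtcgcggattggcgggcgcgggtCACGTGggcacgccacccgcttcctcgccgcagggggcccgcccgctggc
MYCL: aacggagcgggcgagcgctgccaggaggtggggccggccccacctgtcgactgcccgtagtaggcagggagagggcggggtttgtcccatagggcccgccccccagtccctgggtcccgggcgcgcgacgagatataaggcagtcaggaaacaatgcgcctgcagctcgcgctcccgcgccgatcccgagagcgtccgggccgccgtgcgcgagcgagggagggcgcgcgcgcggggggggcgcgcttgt
MXD1: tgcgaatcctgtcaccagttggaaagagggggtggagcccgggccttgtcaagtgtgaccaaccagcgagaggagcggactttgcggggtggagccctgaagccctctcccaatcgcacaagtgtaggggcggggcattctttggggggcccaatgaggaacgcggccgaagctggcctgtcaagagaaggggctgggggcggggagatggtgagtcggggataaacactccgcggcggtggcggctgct

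Levels are given as CPM, the share of a gene in its library put on a fixed scale, with library totals adjusted by TMM factors over the 33 libraries. Total counts ranged from 28508758 to 80727478 per library with a median of 43002133, and the highest totals were those of cetuximab-treated SCC6 on days 4 and 5. Of the 10 genes, 9 passed the filter on low counts in every line and were tested, and MYCN did not. All 8 squamous epithelial markers looked up (KRT5, KRT14, KRT17, KRT6A, TP63, CDH1, EPCAM and DSG3) were above 1 CPM in every library, and the leukocyte markers PTPRC and CD3E were below it in every library. Another of that list, CD68, a lysosomal gene that is not limited to leukocytes, was lower with cetuximab, at 17.3 to 48.0 CPM with PBS and 6.33 to 9.49 CPM with cetuximab in SCC1, 16.6 to 18.8 and 3.74 to 7.12 CPM in SCC6 and 165 to 231 and 145 to 174 CPM in SCC25. Of the 3 endothelial markers, CDH5 was below 1 CPM in every library, and PECAM1 and VWF reached at most 1.04 and 1.89 CPM in SCC25. The summed epithelial markers moved with treatment in SCC1, from 1449 to 2749 CPM with PBS to 6553 to 11418 CPM with cetuximab. The summed fibroblast markers (6 genes) rose from 20.8-32.7 CPM with PBS to 49.9-146 CPM with cetuximab in SCC1. In SCC6 they rose from 2.90-6.64 to 9.02-115 CPM and in SCC25 from 144-195 to 251-405 CPM. With PBS, COL3A1, PDGFRB, LUM and DCN were below 1 CPM in every library of SCC1, and these and COL1A2 in SCC6. The fibroblast sums there thus rest on few of the 6 genes. The part of these marker changes in the results below was not tested. In bulk RNA, fewer cells with a transcript and less of it per cell cannot be told apart.

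The libraries were sequenced on 5 flow cells, which are named A to E and overlap with the groups. Of the SCC1 libraries of days 1 to 5, PBS of days 1 to 4 was on B, and PBS of day 5 and all cetuximab libraries were on C. In SCC6, PBS of days 0 and 1 was on C, PBS of days 2 to 5 and cetuximab 2a, 2b and day 3 were on D, and cetuximab of days 4 and 5 was on E. In SCC25, all PBS libraries and cetuximab of days 1 and 2 were on A, and cetuximab of days 3 to 5 was on B. Within-flow-cell values are therefore given for the tested members, except for MAX in SCC6 and MAX, MXD3, MXD4, MNT and MLX in SCC25. They come from C with 1 PBS library in SCC1 and from D with 4 PBS and 3 cetuximab libraries in SCC6. In SCC25 they come from A, with 5 PBS and 2 cetuximab libraries. The days of PBS and cetuximab are not matched within these flow cells, so changes with time in culture can enter the values. Within A, 1 member passed that had not passed over all SCC25 libraries. In SCC1 the lone PBS library is assumed to vary like the cetuximab libraries.

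**Figure D1:**
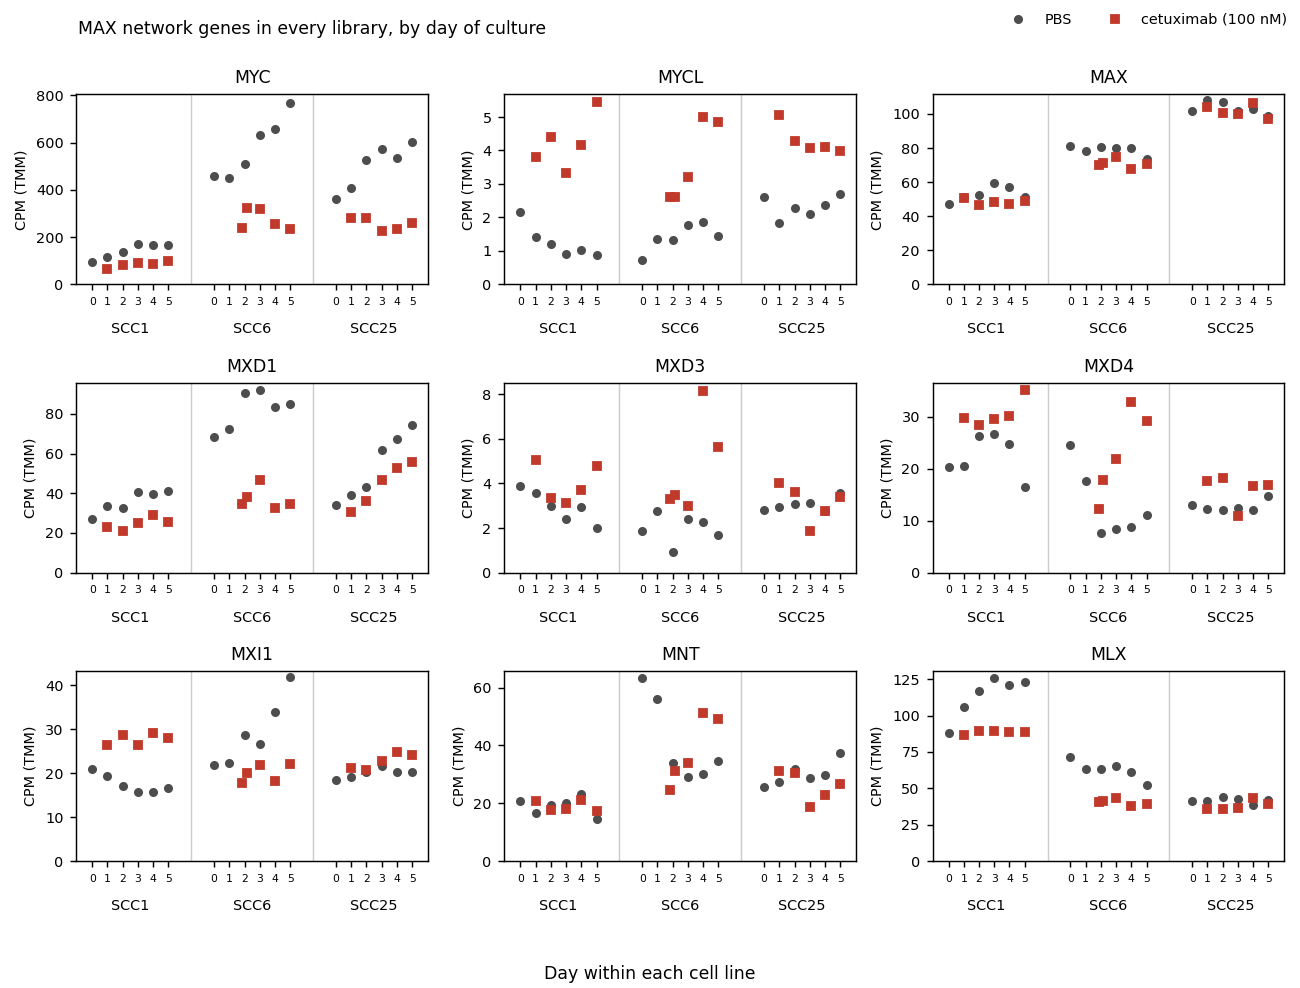
Level of the 9 tested genes in every library, in CPM with TMM scaling on the vertical axis and the day of culture within each cell line on the horizontal axis. Circles are PBS and squares are cetuximab libraries, with cetuximab 2a and 2b of SCC6 both drawn at day 2. MYC with cetuximab lay below PBS of days 1 to 5 and MYCL above it in all 3 lines. MXI1 with cetuximab lay above PBS in SCC1 and below PBS of days 1 to 5, but not of day 0, in SCC6.

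The first question was how much of each gene the untreated lines held. Per kilobase of transcript, MYC was the highest of the 10 genes in PBS-treated SCC6 and SCC25, with 162 ± 34.1 and 142 ± 19.99 CPM per kb (SD, n = 5). In SCC1 it was 40.4 ± 6.77 CPM per kb, next to MLX with 50.2 ± 3.35, and the ranges of these 2 genes overlapped. MAX followed with 27.0 ± 1.82 CPM per kb in SCC1, 39.1 ± 1.5 in SCC6 and 51.6 ± 1.92 in SCC25, and its range overlapped with that of no gene next to it in any line. The 5 MAX-binding repressors were lower, from 2.61 CPM per kb for MXD3 to 6.76 for MXD1 in SCC1, from 1.88 for MXD3 to 15.3 for MXD1 in SCC6 and from 2.90 for MXD3 to 10.3 for MXD1 in SCC25. MXD1 was thus the highest and MXD3 the lowest repressor by mean in every line, although in SCC1 each repressor's range overlapped with that of the next. The range of MXD3 also overlapped with that of MXD4 in SCC6 and SCC25, and that of MXD1 with that of MNT in SCC25. MYCL was at 0.31 to 0.64 CPM per kb, below every repressor.

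In CPM, MYC differed between SCC1 and the other lines, with a log2 difference of -1.82 (SE 0.15, adjusted p = 8.74e-09, edgeR) against SCC25 and of 2.02 (SE 0.15, adjusted p = 2.5e-09) for SCC6 over SCC1. SCC6 and SCC25 differed by 0.19 (SE 0.15, adjusted p = 0.242), which passed the threshold with day as a replicate block (adjusted p = 0.0299). MLX had another order, highest in SCC1 by 1.5 (SE 0.07) over SCC25 and lowest in SCC25, with 0.56 (SE 0.07) for SCC6 over SCC25. MAX was highest in SCC25, with log2 differences of -0.94 (SE 0.06) in SCC1 and -0.40 (SE 0.06) in SCC6. Called between untreated lines were 7 of the 9 genes for SCC1 against SCC25, 6 for SCC6 against SCC25 and 8 for SCC6 against SCC1, against 68.4%, 72.1% and 69.1% of all genes tested. These shares are near the background, and the lines also differed in flow cell.

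MYCN (chr2:16080672-16087129, GRCh37, plus strand), the paralog known from neuroblastoma, was close to absent. It had 0 counts in 15 of the 33 libraries and at most 13 counts, in cetuximab-treated SCC25 on day 3. A library with 0 counts allows up to 3 counts, or 0.0401 to 0.11 CPM in these 15 libraries, counting error only. In SCC25 the PBS libraries of days 0 to 5 had 6, 9, 7, 5, 5 and 2 counts, and the cetuximab libraries of days 1 to 5 had 1, 7, 13, 8 and 4. No test was made, and its antisense gene MYCNOS was listed at 0 in every library.

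MYC (chr8:128747680-128755197, plus strand, GRCh37 as all gene positions here) fell under cetuximab in all 3 lines. In SCC1, MYC was at 114, 135, 172, 166 and 166 CPM with PBS and at 64.1, 81.6, 88.0, 83.6 and 98.3 CPM with cetuximab on days 1 to 5. In SCC6, the PBS libraries of days 1 to 5 had 449, 508, 632, 659 and 769 CPM, and cetuximab 2a, 2b and days 3 to 5 had 237, 322, 319.9, 257 and 233 CPM. In SCC25, PBS gave 408, 524, 574, 535 and 602 CPM and cetuximab 282, 283, 225, 236 and 260.1 CPM. In each line every cetuximab library was below every PBS library of days 1 to 5. The mean with cetuximab was 55.3% of the PBS mean in SCC1, 45.3% in SCC6 and 48.6% in SCC25.

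The log2 fold change of MYC was -0.84 (SE 0.12, adjusted p = 0.000159) in SCC1, -1.16 (SE 0.15, adjusted p = 0.000261) in SCC6 and -1.04 (SE 0.10, adjusted p = 0.000105) in SCC25. These values are from edgeR (quasi-likelihood F test), and p was adjusted over all genes tested by the Benjamini-Hochberg method. Within 1 flow cell it was -0.996, -1.13 and -0.91 in the same order. The change did not pass the test for a difference between lines (adjusted p = 0.509). MYC was one of the genes called lower in all 3 lines, which were 3.91% of the 15763 genes tested in all of them. Before treatment, on day 0, MYC was at 96.1 CPM in SCC1, which is inside the range with cetuximab, and at 457 and 359.6 CPM in SCC6 and SCC25, above all cetuximab libraries.

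With PBS, MYC rose with time in culture. The slope from day 0 to day 5 was 0.16 (SE 0.03, adjusted p = 0.0353) log2 units per day in SCC1, 0.15 (SE 0.03, adjusted p = 0.00298) in SCC6 and 0.15 (SE 0.03, adjusted p = 0.00179) in SCC25. MYC was the one gene of the 9 with a call in SCC1, where 3.22% of all genes had one, and that call was lost without PBS of day 0, 1, 2 or 4 (adjusted p = 0.0545 to 0.192). The background in SCC1 rested on single libraries as well, with 98, 25, 298, 267, 57 and 1732 genes called when PBS of day 0, 1, 2, 3, 4 or 5 was left out. In SCC25, where all PBS libraries came from flow cell A, 3 of the 9 genes had a slope that passed, against 13.4% of all genes (2317 genes, or 1223 without PBS of day 0 and 1291 without day 5). The other ones there were MXD1, with 0.24 (SE 0.02, adjusted p = 9.61e-06), and MNT, with 0.09 (SE 0.02, adjusted p = 0.0292), lost without PBS of day 0, 1 or 5 (adjusted p = 0.078 to 0.342). In SCC6, 5 of the 9 passed, against 38.3% of all genes (5736 genes, or 2160, 3780 and 3296 without PBS of day 0, 1 or 5), but PBS of days 0 and 1 was on another flow cell than PBS of days 2 to 5, and time and flow cell cannot be told apart across that step. There MXI1 rose by 0.17 (SE 0.03) per day along with MYC, and MXD4, MNT and MLX fell by 0.26, 0.22 and 0.08 per day. Without PBS of day 0, MYC and MXI1 kept their call in SCC6 and MXD4, MNT and MLX lost theirs (adjusted p = 0.118 to 0.342). The MLX call was also lost without PBS of day 1, 3, 4 or 5, MXD4 without day 1 or 4, and MXI1 without day 5 (adjusted p = 0.0512 to 0.265).

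MYCL (chr1:40361100-40367928, minus strand), a MYC paralog first found in lung cancer, moved the other way. In SCC1, MYCL was at 1.42, 1.19, 0.904, 1.03 and 0.861 CPM with PBS and at 3.81, 4.4, 3.32, 4.17 and 5.44 CPM with cetuximab on days 1 to 5. In SCC6, MYCL was at 1.34, 1.32, 1.78, 1.86 and 1.43 CPM with PBS and at 2.62, 2.62, 3.2, 5.00 and 4.86 CPM with cetuximab. In SCC25 it was at 1.82, 2.27, 2.09, 2.36 and 2.69 CPM with PBS and at 5.05, 4.29, 4.08, 4.09 and 3.99 CPM with cetuximab. In each line every cetuximab library was above every PBS library. The rise was 3.91-fold between means in SCC1, 2.37-fold in SCC6 and 1.91-fold in SCC25, at counts of 26 to 374 per library.

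On the log2 scale MYCL rose by 1.98 (SE 0.18, adjusted p = 4.62e-06, edgeR) in SCC1, 1.23 (SE 0.23, adjusted p = 0.00223) in SCC6 and 0.93 (SE 0.12, adjusted p = 0.000537) in SCC25. The sizes differed between lines (adjusted p = 0.00918 for the line-by-treatment terms). Within 1 flow cell the rise was 2.29 (adjusted p = 0.00238) in SCC1, 0.81 (adjusted p = 0.0101) in SCC6 and 1.06 (adjusted p = 0.00399) in SCC25. Genes called higher in all 3 lines were 3.08% of those tested in all of them, and MYCL was the one member among these. Per kilobase, MYC, MYCL and MYCN together were lower with cetuximab, at 40.7 ± 6.71 CPM in untreated and 23.5 ± 3.48 in treated SCC1 (SD, n = 5), 163 ± 34.1 and 74.6 ± 11.7 in SCC6, and 143 ± 20.1 and 70.4 ± 7.08 in SCC25.

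**Figure D2:**
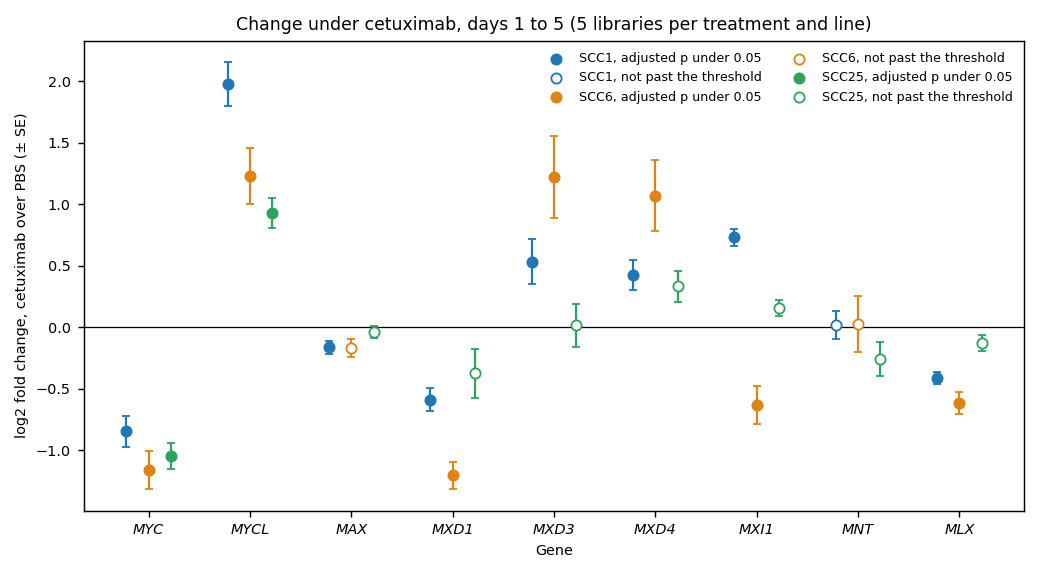
Log2 fold change of cetuximab over PBS (vertical axis) with its SE for the 9 tested genes (horizontal axis) in SCC1, SCC6 and SCC25, days 1 to 5, 5 libraries per treatment. Filled points passed an adjusted p of 0.05 in edgeR's test and open points did not; MYC and MYCL are filled in all 3 lines, and MXI1 is at 0.73 in SCC1 and -0.63 in SCC6.

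Over the 9 tested genes, 8 passed in SCC1 (4 higher and 4 lower), where 44.8% of all genes tested did (22.7% higher and 22.1% lower). SCC6 had 7 (3 higher and 4 lower), with a background of 30.1% (15.6% and 14.6%), and in SCC25 it was 2, MYCL higher and MYC lower, with a background of 18.3% (8.8% and 9.5%). On days 1 to 5 the treatments did not overlap for 7 of the 9 genes in SCC1, 6 in SCC6 and 2 in SCC25. Of all genes tested, 31.3%, 19.1% and 14.7% did not overlap in these lines. PBS of day 0, which is not counted here, lay inside the range with cetuximab for MYC, MAX, MXD1 and MLX in SCC1. The same held for MXI1 in SCC6. The median log2 change of the 9 genes was 0.021 in SCC1, -0.17 in SCC6 and -0.036 in SCC25, and that of all genes tested was 0.021, 0.0039 and 0.0062. In 1 fit over the 3 lines with the line as a covariate, 7 of the 9 passed (3 higher and 4 lower) against 41.5% of all genes (22.3% and 19.1%), and MXI1 and MNT did not. The count in SCC1 was 6 to 8 when 1 library was left out, and the SCC25 count was 3 with day as a replicate block and 5 with the trend with GC content removed.

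MAX (chr14:65472892-65569413, minus strand), the obligate partner of MYC, had the smallest called changes. In SCC1, MAX was at 51.4, 52.6, 59.4, 57.0 and 51.3 CPM with PBS and at 50.5, 46.2, 48.1, 47.3 and 48.9 CPM with cetuximab. It fell there by 0.16 (SE 0.05, adjusted p = 0.0255, edgeR), and the call was lost without PBS of day 3 or 4 or cetuximab of day 2 or 4 (adjusted p = 0.0553 to 0.0645), with PBS of day 0 added (adjusted p = 0.0809) and within flow cell C, where the value was -0.09 (adjusted p = 0.526). In SCC6, where PBS ranged from 73.4 to 80.5 CPM and cetuximab from 67.4 to 74.6 CPM, the value was -0.17 (SE 0.07, adjusted p = 0.0982), and in SCC25, from 98.9 to 108 CPM with PBS and 97.3 to 106 with cetuximab, it was -0.04 (SE 0.05, adjusted p = 0.634). DESeq2 called MAX in SCC6 (adjusted p = 0.0275), as did the fit with the GC trend removed (adjusted p = 0.00524).

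Among the repressors, MXD1 (chr2:70124820-70170077, plus strand), which is induced in differentiating epithelium, fell in SCC1 and SCC6. In SCC6 MXD1 was at 72.4, 90.4, 92.2, 83.7 and 84.8 CPM with PBS and at 34.6, 37.9, 46.7, 32.7 and 34.6 CPM with cetuximab, a fall by 1.2 on the log2 scale (SE 0.11, adjusted p = 2.77e-05, edgeR). In SCC1 it was at 33.5, 32.6, 40.6, 39.8 and 41.2 CPM with PBS and at 23.1, 21.0, 25.2, 29.1 and 25.8 CPM with cetuximab, a fall by 0.59 (SE 0.09, adjusted p = 0.000296). The groups of days 1 to 5 did not overlap in either line. On day 0, PBS had 27.0 CPM in SCC1, inside the range with cetuximab, and 68.3 CPM in SCC6, above it. Within 1 flow cell MXD1 was at -1.14 (adjusted p = 5.77e-05) in SCC6 and at -0.73 (adjusted p = 0.0122) in SCC1.

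In SCC25 MXD1 increased with the day in both groups, from 39.4, 43.0, 61.7 and 67.4 to 74.6 CPM with PBS and from 30.7, 36.0, 46.7 and 52.8 to 56.0 CPM with cetuximab. The cetuximab library was lower on 5 of 5 days, by 0.26 to 0.41 log2 units, while the ranges overlapped. Within flow cell A, which holds the cetuximab libraries of days 1 and 2 alone, the value was -0.78 (adjusted p = 0.0557). Over all libraries it was -0.37 (SE 0.20, adjusted p = 0.218) without and -0.36 (adjusted p = 0.00101) with day as a replicate block. The change of MXD1 differed between lines (adjusted p = 0.0151), which was lost with the flow cell as a covariate (adjusted p = 0.444).

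MXI1 (chr10:111967363-112047123, plus strand), the repressor also named MXD2, changed in opposite directions in SCC1 and SCC6. In SCC1 it was at 19.3, 17.0, 15.6, 15.8 and 16.5 CPM with PBS and at 26.5, 28.6, 26.5, 29.2 and 28.1 CPM with cetuximab. In SCC6 it was at 22.3, 28.7, 26.6, 33.9 and 41.9 CPM with PBS and at 17.9, 20.1, 21.8, 18.2 and 22.2 CPM with cetuximab. All 5 cetuximab libraries were above PBS in SCC1 and below PBS of days 1 to 5 in SCC6. There PBS of day 0 (21.8 CPM) lay inside the range with cetuximab, and PBS of day 1 (22.3 CPM) lay close above it.

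The log2 change of MXI1 was 0.73 (SE 0.07, adjusted p = 8.13e-06) in SCC1, -0.63 (SE 0.15, adjusted p = 0.00977) in SCC6 and 0.16 (SE 0.07, adjusted p = 0.118) in SCC25, where PBS was at 19.2 to 21.6 CPM and cetuximab at 20.8 to 24.9 CPM. Within 1 flow cell the values were 0.75, -0.71 and 0.05. The line-by-treatment terms had an adjusted p of 7.24e-07, and 3.15e-06 at most when 1 of the 30 libraries was left out. Genes called in opposite directions in SCC1 and SCC6 were 2.52% of the 15763 tested in all lines, and MXI1 was the one member among them.

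MXD4 (chr4:2249159-2263836, minus strand), a repressor known from differentiating cells, rose in SCC1 and SCC6. In SCC1, MXD4 was at 20.5, 26.4, 26.6, 24.8 and 16.4 CPM with PBS and at 29.7, 28.5, 29.5, 30.2 and 35.2 CPM with cetuximab, a rise by 0.43 (SE 0.12, adjusted p = 0.0118, edgeR) that was 0.90 within flow cell C, which holds the lowest PBS library. In SCC6, MXD4 was at 17.7, 7.59, 8.38, 8.87 and 11.1 CPM with PBS and at 12.3, 17.8, 21.8, 32.9 and 29.2 CPM with cetuximab, a rise by 1.07 (SE 0.29, adjusted p = 0.0157). The groups overlapped in SCC6, where PBS of days 0 and 1, on flow cell C, had 24.6 and 17.7 CPM. With PBS of day 0 added the call in SCC6 was lost (adjusted p = 0.0944). With day as a replicate block and 2a as day 1 it was also lost (adjusted p = 0.0512), with 2b as day 1 it held (adjusted p = 0.0225), and within flow cell D the rise was 0.95 (adjusted p = 0.00445).

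In SCC25 MXD4 was at 12.2, 12.1, 12.5, 12 and 14.8 CPM with PBS and at 17.7, 18.1, 10.9, 16.6 and 17.0 CPM with cetuximab. Cetuximab of day 3 stood apart as the lowest library, and the value of 0.33 (SE 0.13, adjusted p = 0.0887) became 0.45 (adjusted p = 0.00238) without it. Without PBS of day 5 it also passed (adjusted p = 0.0483). MNT and MXD3, whose transcripts have 61.3% and 65.6% GC next to 63.5% for MXD4, were lowest in the same cetuximab library of SCC25, and so was MYC, whose transcript has 48.8% GC. With the GC trend of each library removed, MXD4 was called in SCC25 with 0.44 (adjusted p = 0.000174).

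MXD3 (chr5:176728462-176739758, minus strand), a repressor expressed in proliferating cells, was low, at 27 to 610 counts per library. In SCC6 it was at 2.74, 0.936, 2.39, 2.26 and 1.69 CPM with PBS and at 3.31, 3.49, 2.99, 8.16 and 5.62 CPM with cetuximab, a rise by 1.22 (SE 0.34, adjusted p = 0.0169, edgeR) without overlap. The 2 highest cetuximab libraries were those on flow cell E, and within flow cell D the rise was 0.84 (adjusted p = 0.0407). In SCC1 it rose by 0.53 (SE 0.18, adjusted p = 0.0307), from 2.02 to 3.59 CPM with PBS to 3.14 to 5.06 CPM with cetuximab, and the call was lost without PBS of day 3 or 5 or cetuximab of day 1 or 5 (adjusted p = 0.0678 to 0.0783), with PBS of day 0 added (adjusted p = 0.0819) and within flow cell C, where the value was 0.98 (adjusted p = 0.0588). In SCC25 the value was 0.02 (SE 0.17, adjusted p = 0.954). Exons of MXD3 share bases with those of PRELID1 on the other strand and RAB24 on the same strand, 24.2% and 19.5% of its exon length. Other members also share exon bases with genes on the other strand. These include MLX with PSMC3IP (18.2%), MAX with FNTB (13.1%) and MNT with a noncoding gene (12.2%). How reads were divided between such genes is not given.

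MNT (chr17:2287367-2304398, minus strand), the broadly expressed repressor, passed in no line. Its log2 change was 0.02 (SE 0.11, adjusted p = 0.901) in SCC1, 0.03 (SE 0.23, adjusted p = 0.936) in SCC6 and -0.26 (SE 0.14, adjusted p = 0.215) in SCC25. In SCC6 the libraries spread widely, with 63.3, 56.1, 34.0, 29.2, 30.1 and 34.5 CPM on days 0 to 5 of PBS and 24.6, 31.2, 34.1, 51.1 and 49.1 CPM with cetuximab. The high values were those of PBS on flow cell C and of cetuximab on flow cell E, and the 7 libraries on flow cell D were between 24.6 and 34.5 CPM. Within flow cell D the value was -0.09 (adjusted p = 0.61), within flow cell C that of SCC1 was 0.38 (adjusted p = 0.111), and with the GC trend removed that of SCC6 was -0.24 (adjusted p = 0.0577). In SCC25, removal of that trend gave -0.18 (adjusted p = 0.0281).

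**Figure D3:**
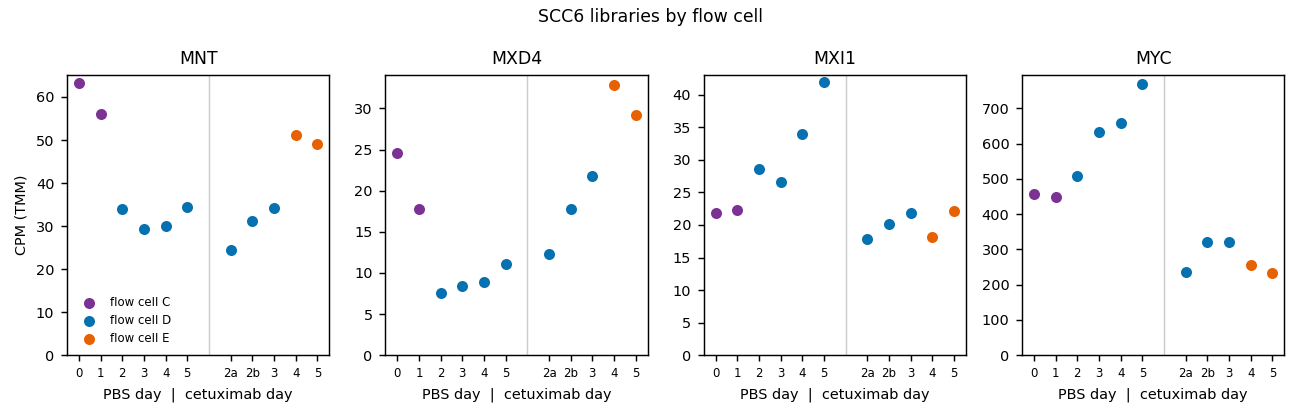
MNT, MXD4, MXI1 and MYC in each SCC6 library, in CPM with TMM scaling (vertical axis), by day of PBS and then of cetuximab (horizontal axis), coloured by flow cell. MNT was between 24.6 and 34.5 CPM in the 7 libraries on flow cell D and between 49.1 and 63.3 CPM in the other 4, while MYC with cetuximab was below every PBS library.

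MLX (chr17:40719090-40725257, plus strand), the MAX-like partner of MondoA, fell in SCC1 and SCC6. In SCC1, MLX was at 106, 117, 126, 121 and 123 CPM with PBS and at 86.6, 89.6, 89.4, 88.5 and 88.8 CPM with cetuximab, next to 88.2 CPM on day 0. In SCC6, MLX was at 63.1, 63.5, 65.7, 61.4 and 52.2 CPM with PBS and at 40.9, 41.6, 43.0, 37.8 and 38.9 CPM with cetuximab. The groups did not overlap in either line. It fell by 0.41 (SE 0.05, adjusted p = 3.52e-05, edgeR) in SCC1 and by 0.62 (SE 0.09, adjusted p = 0.000428) in SCC6, and by 0.47 and 0.54 within 1 flow cell. In SCC25, from 38.5 to 44 CPM with PBS and 35.9 to 43.1 with cetuximab, the value was -0.13 (SE 0.06, adjusted p = 0.193).

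The change differed between lines for 5 of the 9 genes, MXI1, MLX (adjusted p = 0.000805), MYCL, MXD1 and MXD3 (adjusted p = 0.0358), against 26.1% of all genes. With the flow cell as a covariate, MXI1 (adjusted p = 3.06e-05) and MYCL (adjusted p = 0.00745) kept the call, and MLX had an adjusted p of 0.0763. The MXD3 call was lost without any one of 7 libraries, PBS of day 5 and cetuximab of days 3 and 4 in SCC25 and PBS of days 2 and 5 and cetuximab of days 4 and 5 in SCC6 (adjusted p = 0.0581 to 0.106). MXD4 (adjusted p = 0.0997) passed without PBS of day 1 or cetuximab 2a in SCC6 (adjusted p = 0.00744 and 0.0188). MAX had an adjusted p of 0.258 and MNT of 0.600.

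Summed per kilobase, the 5 repressors moved less than MYC. They were at 24.0 ± 1.67 CPM per kb in untreated and 28.0 ± 1.67 in treated SCC1 (SD, n = 5). In SCC6 they were at 36.2 ± 2.06 and 30.5 ± 6.14, and in SCC25 at 28.7 ± 3.82 and 26.9 ± 2.49. The ratio of MYC to this sum went from 1.69 ± 0.31 with PBS to 0.80 ± 0.12 with cetuximab in SCC1, from 4.48 ± 0.89 to 2.5 ± 0.66 in SCC6 and from 4.96 ± 0.35 to 2.58 ± 0.29 in SCC25. In SCC1 it was above 1 in all 5 PBS libraries, with 1.29 as the lowest, and below 1 in all 5 cetuximab libraries, with 0.90 as the highest. In SCC6 it was 3.17 to 5.32 with PBS and 1.77 to 3.22 with cetuximab, so that the groups overlapped, and in SCC25 it was 4.55 to 5.40 and 2.24 to 2.87. The ratio is of RNA per transcript length and does not measure protein.

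**Figure D4:**
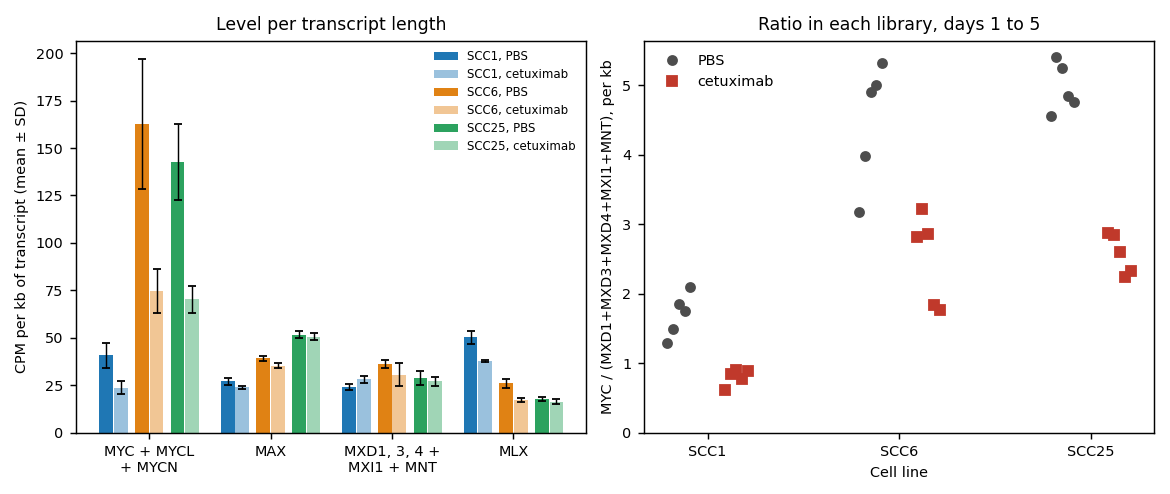
Left, mean level in CPM per kilobase of transcript (vertical axis, bars with SD, n = 5) of MYC with MYCL and MYCN, of MAX, of the 5 repressors MXD1, MXD3, MXD4, MXI1 and MNT, and of MLX, in each line and treatment. Right, ratio of MYC to the sum of the repressors in each library of days 1 to 5, by line; in SCC1 the ratio was 1.29 or more with PBS and 0.90 or less with cetuximab.

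Genes known to be activated by MYC were then counted. Of 22 genes of ribosome biogenesis, all 22 fell in SCC1, 20 in SCC6 and 21 in SCC25, and none rose, while 22.1%, 14.6% and 9.5% of all genes tested were called lower in these lines and 22.7%, 15.6% and 8.8% higher. Their median log2 changes were -0.30, -0.69 and -0.37, next to 0.021, 0.0039 and 0.0062 for all genes tested. BOP1 and PPAN, factors for the large ribosomal subunit, had the largest falls in SCC1, by 0.73 (SE 0.09) and 0.50 (SE 0.10). In SCC6 these were POLR1B, a subunit of RNA polymerase I, which fell by 1.10 (SE 0.12), and the nucleolar protein gene NOLC1, which fell by 0.89 (SE 0.13). In SCC25 BOP1 fell by 0.68 (SE 0.16) and MYBBP1A by 0.54 (SE 0.11). With the flow cell as a covariate, 10 of the 22 passed in SCC1, 19 in SCC6 and 13 in SCC25, all lower, and within 1 flow cell 8, 19 and 17 did, with medians of -0.26, -0.56 and -0.32.

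Of 19 metabolic and translation genes that MYC activates, 15 fell and 1 rose in SCC1, 12 fell and 1 rose in SCC6 and 13 fell in SCC25, next to the same 22.1%, 14.6% and 9.5% of all genes called lower, with medians of -0.30, -0.50 and -0.35. ODC1, the rate-limiting enzyme of polyamine synthesis, fell in every line, by 1.32 (SE 0.13), 1.71 (SE 0.29) and 0.80 (SE 0.08), from 367 to 146 CPM in SCC1, from 1016 to 316 CPM in SCC6 and from 189 to 109 CPM in SCC25. The nucleotide synthesis gene CTPS1 in SCC1 (by 0.66), the purine synthesis gene GART in SCC6 (by 0.85) and the hexokinase gene HK2 in SCC25 (by 0.60) came next. The amino acid transporter gene SLC7A5 went against the rest of the list and rose by 0.76 (SE 0.10) in SCC1 and 0.87 (SE 0.15) in SCC6. For this list and those below, counts with the flow cell as a covariate are not given.

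Of 8 cell cycle genes, 6 fell in SCC1, and 3 of 7 tested in SCC6 and 3 of 8 in SCC25 did (22.1%, 14.6% and 9.5% of all genes), with medians of -0.49, -0.14 and -0.28. CDC25A, a phosphatase that drives entry into S phase, fell in all 3 lines, by 0.98 in SCC1, 0.88 in SCC6 and 0.56 in SCC25. CCND2 fell by 1.16 in SCC1 and 0.58 in SCC25, and CCNE1 by 1.07 in SCC6. Among 11 genes that MYC is known to repress, 6 rose and 2 fell in SCC1, 6 of 10 tested rose in SCC6 and 2 rose in SCC25, where 22.7%, 15.6% and 8.8% of all genes were called higher, with medians of 0.64, 0.70 and 0.03. CDKN1C, a cell cycle inhibitor, rose in SCC1 from 0.264 to 1.69 CPM and in SCC6 from 1.12 to 3.69 CPM, and in SCC1 CEBPA rose from 0.189 to 1.73 CPM. THBS1 rose in SCC6 by 1.79 (SE 0.25), and CDKN2B and CLU rose in SCC25 by 0.73 and 0.39. CDKN1A, which encodes the inhibitor p21, went the other way in SCC1 and fell by 0.73 (SE 0.17), as did NDRG2 by 0.46.

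**Figure D5:**
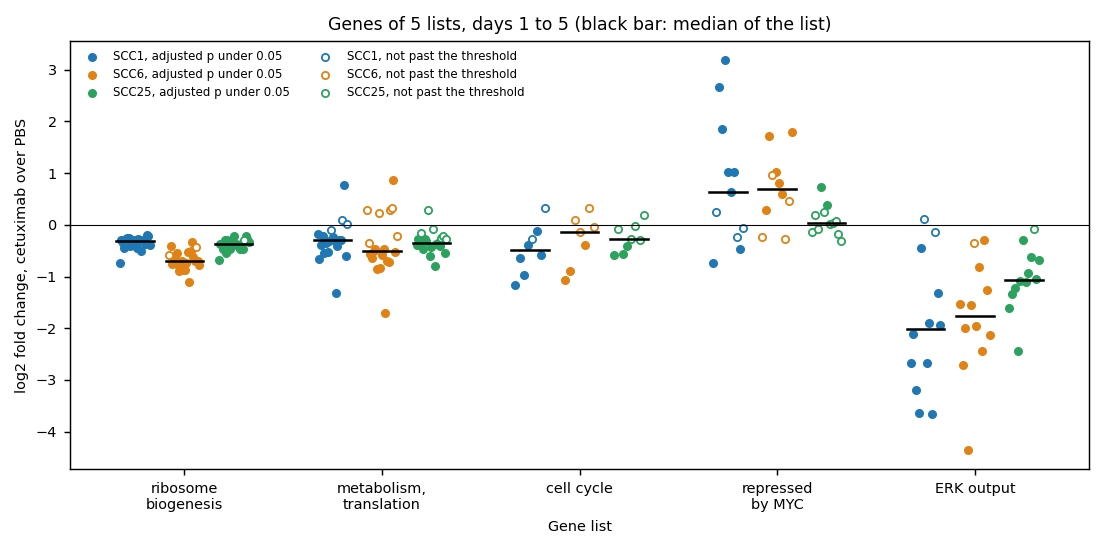
Log2 fold change of cetuximab over PBS (vertical axis) for each tested gene of 5 lists (horizontal axis) in SCC1, SCC6 and SCC25, days 1 to 5. Filled points passed an adjusted p of 0.05, open points did not, and black bars are the medians, which for ribosome biogenesis were -0.30, -0.69 and -0.37 and for ERK output -2.02, -1.76 and -1.07.

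Genes upstream and around the network were read in the same way. Of 12 genes that report ERK activity, 10 fell in SCC1 and 11 each in SCC6 and SCC25, against 22.1%, 14.6% and 9.5% of all genes, with medians of -2.02, -1.76 and -1.07. EGR1, an immediate early gene, fell by 3.64 (SE 0.31) in SCC1, 4.35 (SE 0.24) in SCC6 and 2.44 (SE 0.18) in SCC25, PHLDA1 by 3.66 in SCC1, and the ERK phosphatase genes DUSP5 by 2.72 in SCC6 and DUSP4 by 1.62 in SCC25. Of 5 noncoding genes that neighbour MYC at 8q24, 1 of 3 tested fell in SCC1, 2 of 4 in SCC6 and 3 of 5 in SCC25. Of all genes, 22.1%, 14.6% and 9.5% were called lower in these lines, and with so few genes the list is not set apart from them. CCAT1 was lower in every line, by 0.97 (SE 0.11), 1.14 (SE 0.20) and 0.61 (SE 0.19), at 11.8 CPM with PBS in SCC1 and 1.04 and 0.707 CPM in the others. CASC8 fell in SCC6 by 1.28 and in SCC25 by 0.82, and PVT1, which was at 14.8 to 70.5 CPM with PBS, fell in SCC25 by 0.36 (SE 0.07, adjusted p = 0.00451, edgeR). CASC11, which shares 194 exon bases with MYC on the other strand, and PCAT1 were below 0.6 CPM on average and did not pass in any line where they were tested.

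Of 11 cofactors of MYC, 7 fell in SCC1, 3 in SCC6 and 6 in SCC25, where 1 rose, with medians of -0.23, 0.07 and -0.24. Of all genes tested, 22.1%, 14.6% and 9.5% were called lower, and in SCC6 the list is not set apart from that share. RUVBL2 fell by 0.29 in SCC1 and 0.45 in SCC25. RUVBL1 and the acetyltransferase gene KAT2A fell in SCC6, by 0.50 and 0.40. ZBTB17, which encodes the MYC partner MIZ1, fell by 0.41 in SCC25, where BPTF rose by 0.19. Of 9 corepressor genes that serve the MXD proteins and MNT, 5 fell and 1 rose in SCC1, 1 rose in SCC6 and 1 fell in SCC25, with medians of -0.21, -0.22 and -0.11, and the single calls in SCC6 and SCC25 are near the 15.6% of all genes called higher and 9.5% called lower there. These genes include SAP30, which fell by 0.49 in SCC1 and 0.42 in SCC25, and RBBP7, which fell by 0.36 in SCC1. SIN3A, the scaffold, rose by 0.21 in SCC1, and NCOR1 rose by 0.27 in SCC6.

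Of 14 symbols for MYC protein turnover, 13 were tested, and 3 rose and 3 fell in SCC1, 2 rose and 3 fell in SCC6 and 3 fell in SCC25, with medians of 0.06, 0.04 and -0.04. In SCC1 and SCC6 these counts are near the shares of all genes (22.7% higher and 22.1% lower in SCC1, 15.6% and 14.6% in SCC6). In SCC25, 8.8% of all genes were called higher and 9.5% lower. The genes named here are given as single values. KIAA1524, the older symbol of CIP2A, which protects MYC from dephosphorylation, fell by 0.89 (SE 0.08) in SCC1 and 0.54 (SE 0.18) in SCC6. PIM1, a kinase that acts on MYC, fell by 0.56 in SCC6 and 0.71 in SCC25, and AURKA fell by 0.37 in SCC25. The ubiquitin ligase gene SKP2 rose by 0.43 in SCC1 and 0.39 in SCC6, HUWE1 rose by 0.29 in SCC1 and TRIM32 by 0.74 in SCC6, whereas the deubiquitinase gene USP36 fell by 0.36 in SCC1. Of the remaining network genes, MGA, a MAX-binding repressor, fell by 0.13 (SE 0.05, adjusted p = 0.0414) in SCC1. MLXIP had values of 0.03, 0.33 and -0.02 in SCC1, SCC6 and SCC25 and MLXIPL of 0.64 and 0.56 in SCC6 and SCC25, with adjusted p above 0.05. Of the MondoA target genes, ARRDC4 fell by 0.70 (SE 0.15, adjusted p = 0.00406) in SCC6, and TXNIP had values of 0.30, -0.12 and 0.02 that did not pass.

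Genes whose pattern was most like that of a member were ranked by Pearson's r over the 30 libraries of days 1 to 5, on log2 CPM with the mean of each line removed. The 9912 genes whose log2 CPM averaged 3 or more were ranked. The 30 points share treatment, depth and flow cells, and the values are a description. For MYC these were ZPR1, MRPL58, GPHN, NOB1 and EIF3C, with r from 0.93 to 0.95. For MYCL they were DAG1, SLC22A23, NSD1, LINC00294 and PIK3C2B (0.93 to 0.94), and for MLX they were PLAUR, PNP, PFDN2 and FAM83A (0.95 to 0.96). MXD1 had SOWAHC, TMEM154, EAF1, PARD6B and ZNF562 (0.90 to 0.91), MXD3 had MVK, ZNF76, OBSL1, PCYT2 and ROGDI (0.89 to 0.91), MXD4 had TBC1D17, TRIOBP, PLD3, ULK1 and SPEG (0.95 to 0.96), and MXI1 had RMND5A, PPCS, RPS6KA5, PCMTD2 and FKBP5 (0.85 to 0.87).

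Whether the changes moved between days 1 to 3 and days 4 and 5 was tested with a treatment-by-period term. In edgeR's test 0 of the 9 genes and 0 of all genes (0%) passed in each line, with 1458, 5626 and 599 genes at an unadjusted p under 0.05 in SCC1, SCC6 and SCC25. Without the filter on low counts edgeR called 202, 3366 and 7 genes, and in SCC6 it called 1424 without PBS of day 1 and 973 without PBS of day 3. DESeq2 called 31, 2838 and 3 genes in the same lines, MYC and MNT among those in SCC6. MYC in SCC6 was lower in the later period by 0.66 more (SE 0.23, adjusted p = 0.105, edgeR; adjusted p = 0.0436, DESeq2), with log2 ratios of -0.98, -1.36 and -1.72 on days 3 to 5. In SCC25 the daily ratio was -0.53 on day 1 and -0.89 on day 2, and -1.35, -1.18 and -1.21 on days 3 to 5, with a period difference of -0.28 (SE 0.20, adjusted p = 0.9999). In SCC1 the daily ratios ranged from -0.99 to -0.72. The daily ratio of MYCL was 1.36 on day 1 and 2.53 on day 5 in SCC1, whereas SCC25 had 1.43 on day 1 and 0.55 at the end. The period differences of 0.64 (SE 0.33) and -0.46 (SE 0.22) did not pass (adjusted p = 0.705 and 0.9999, edgeR). Cetuximab libraries changed from flow cell A to B after day 2 in SCC25 and from D to E after day 3 in SCC6. In SCC1, PBS changed from B to C after day 4. For MYC and MYCL, time and flow cell cannot be told apart across these steps. MNT in SCC6, with 1.08 (SE 0.36, adjusted p = 0.1004), passed in edgeR's test without PBS of day 3 (adjusted p = 0.0499), and its later cetuximab libraries are those on flow cell E.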

How the data were processed

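Bulk polyA RNA was sequenced from 33 libraries of 3 HNSCC lines. The authors quantified reads with Salmon (0.8.2 in the submitters' processing notes) and deposited estimated counts per gene, summarised with tximport. GRCh37/hg19 is named without a role. The sources used here give neither the annotation nor the strand setting of the quantification. The kit was stranded. Reads of overlapping genes may be divided between them.

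The members and gene lists were chosen with earlier results of these data known. Counts were rounded, filtered with filterByExpr, scaled with TMM and tested with edgeR (4.0.16, R 4.3.3) quasi-likelihood F tests, with Benjamini-Hochberg adjustment over all genes tested and a threshold of 0.05. SE is the size of the log2 change divided by the square root of F. Fits of a single line used that line's 10 libraries of days 1 to 5 (6 PBS libraries for slopes), and the line-by-treatment and 3-line fits used 30. DESeq2 (1.42.0) was an alternative. Values per kilobase were divided by the length of the canonical GENCODE transcript lifted to GRCh37, which also gave GC content. Daily log2 ratios used a pseudocount of 0.1 CPM.

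All 10 members were named. From each list up to 2 rises and 2 falls per line were named, by size among genes past the threshold, and every gene of lists of 5 or fewer. Pattern neighbours are the 5 genes with the highest r for members past the threshold in 2 or more lines. A few genes that these rules would name are not reported here. Removal of the trend with GC content and the fits within a flow cell were chosen after seeing the data. Columns of no sample numbered 0, and of the 75 pairs of libraries within a group none was identical. Each fit was tested on simulated data. Cetuximab and PBS libraries of the same labelled day deviated together by r of 0.083 to 0.27 in SCC1 and 0.17 to 0.36 in SCC25. In SCC6 r was -0.10 to 0.40 on the labelled days. Every pair was above 0.1 in SCC25 alone. Against PBS of day 1, 2a and 2b of SCC6 had r of -0.29 and -0.35.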

Additional observations from a re-analysis of the deposited data

Results flagged for a closer look

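In 6 of 54 groups of 5 libraries 1 library stood apart from the rest (Dixon's criterion at 95%), where chance gives about 1 in 20. These were MYCL in cetuximab-treated SCC25 on day 1, at 5.05 CPM next to 4.29 for the nearest library, and MAX in PBS-treated SCC6 on day 5, at 73.4 next to 78.5 CPM. MXD4 stood apart in cetuximab-treated SCC1 on day 5 (35.2 next to 30.2 CPM), in PBS-treated SCC25 on day 5 (14.8 next to 12.5 CPM) and in cetuximab-treated SCC25 on day 3 (10.9 next to 16.6 CPM). MNT did so in PBS-treated SCC6 on day 1, at 56.1 next to 34.5 CPM, and that library came from flow cell C while the other PBS libraries of days 2 to 5 came from D.

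The change under cetuximab differed between the 3 lines, by the line-by-treatment terms in edgeR, for MXI1 (adjusted p = 7.24e-07), MLX (adjusted p = 0.000805), MYCL (adjusted p = 0.00918), MXD1 (adjusted p = 0.0151) and MXD3 (adjusted p = 0.0358). Of all genes tested, 26.1% were called. With the flow cell as a covariate, MXI1 and MYCL alone kept the call, and that of MXD3 was also lost without any one of 7 libraries.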

How the results depend on the processing

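Of 2502 values of single genes under alternatives, 2336 kept their direction and their side of the threshold, 68 changed sign, 55 lost the threshold and 43 passed it. Each change of sign was of a value that had not passed the threshold. MNT in SCC1 was -0.017 with day 0 added, -0.010 with the GC trend removed and -0.00811 with that and day as a replicate block, and -0.070 to 0.099 when 1 library was left out. MNT in SCC6 was -0.11 with flow cell as a term of the fit, -0.14 with day 0 added, -0.24 with the GC trend removed, -0.24 with that and day as a replicate block under either order of 2a and 2b, -0.092 within flow cell D, and -0.098 to 0.23 when 1 library was left out. In SCC25, MAX was 0.0151 with library totals, and MXD3 was -0.00776 with day as a replicate block and -0.074 to 0.16 when 1 library was left out. Over the 3 lines, MXI1 was -0.16 and MNT 0.031 under the flow cell term.

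The count of members called in SCC25 was 4 with library totals, 3 with day as a replicate block, 5 with the GC trend removed and 6 with both, and the number of line-by-treatment calls fell to 2 under that term. When 1 library was left out, 6 to 8 members were called in SCC1, 7 in SCC6, 2 to 3 in SCC25 and 4 to 6 for line-by-treatment. The block changed, beside the calls given with MXD1, MXD4 and untreated MYC, no other call of a treatment effect within a line. The number of PBS slopes called was 4 in SCC1 with DESeq2, 0 with days 1 to 5 and 0 to 5 without 1 library, and in SCC6 2 with days 1 to 5 and 2 to 5 without 1 library. The slopes without 1 library were -0.078 to 0.083 for MXD4 and -0.081 to 0.041 for MNT in SCC1, -0.070 to 0.041 for MXD3 in SCC6, and -0.014 to 0.12 for MYCL, -0.020 to 0.059 for MXD4 and -0.017 to 0.00746 for MLX in SCC25. For the later against the earlier period, MYC in SCC1 was -0.00881 with DESeq2, -0.00850 with its size factors, -0.019 with library totals and -0.011 with day as a replicate block, MAX in SCC6 was -0.00519, -0.00453 and -0.021 with the first 3 of these, and MXD4 in SCC25 was 0.000289 with the block. The number of period calls in SCC6 was 2 with DESeq2, 4 without the filter and 0 to 1 without 1 library. Period values without 1 library were, in SCC1, -0.18 to 0.12 for MYC, -0.068 to 0.098 for MAX, -0.033 to 0.16 for MXD1 and -0.26 to 0.42 for MNT, in SCC6, -0.033 to 0.081 for MAX and -0.029 to 0.19 for MLX, and in SCC25, -0.27 to 0.13 for MXD1, -0.38 to 0.090 for MXD3 and -0.24 to 0.15 for MXD4. The causes were not tested.

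Over all genes, SCC1 had 8061 calls, or 4197 under the flow cell term, SCC25 had 3496 and 1417 (5781 with the GC trend removed), and line-by-treatment had 5586 and 3080. Day 0 added to PBS cost 3 calls, MAX and MXD3 in SCC1 and MXD4 in SCC6 (adjusted p = 0.0809 to 0.0944, edgeR). Each comparison within a line rests on 5 libraries per treatment, flow cells overlap with treatment, and MXD3, MYCL and MYCN had at most 610, 374 and 13 counts per library.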
